A study of Drosophila melanogaster with 6 samples.

Results

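The genes described here make, modify, bind or degrade chitin in the fly: the chitin synthase gene kkv, the chitin deacetylase genes verm and serp, the chitinase genes Cht2, Cht5, Cht6, Cht7 and Cht10, and obst-A and Gasp, which encode chitin-binding matrix proteins. They were chosen as all probe sets annotated to 1 of these 10 symbols. That gave 12 probe sets for 10 genes, out of 18769 probe sets and 11982 named genes in all. Cht6 had 3 probe sets and the other genes 1 each.

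Chitin is a polymer of N-acetylglucosamine that gives insect cuticle its stiffness. Epithelial cells polymerise it at their apical membrane with the synthase Kkv, deacetylases remove acetyl groups from the fibres in the matrix, and chitinases cut the polymer when old cuticle is dissolved at a moult. Imaginal discs are larval epithelia that later secrete the pupal and adult cuticle, including the lens of the compound eye.

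RNA was measured in eye-antennal discs of Drosophila melanogaster, dissected from third-instar larvae of the w1118 strain that had been grown at 25 °C to the wandering stage. The tumour discs carried ey-Gal4, GS(2)88A8 and UAS-Dl/+, and the control discs had the same genotype but no ey-Gal4, so both share the insertion and the transgene of the Notch ligand Delta. The ey-Gal4 driver is active in the developing eye, and the GS(2)88A8 insertion is known to place lola and psq under Gal4 control; no group carried the driver alone. Each genotype had 3 arrays, and each array measured 1 pool of many discs. The question is which RNA levels go with the presence of the driver.

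Values are log2 intensities of the Affymetrix Drosophila Genome 2.0 array, processed by the authors with GCRMA, with a floor of 2.165. Array intensities carry no read depth, so the number of arrays limits the precision. A probe set was tested when it reached 4 log2 on at least 3 arrays, and 6447 genes were. Each difference is tumour minus control on the gene's brightest tested probe set, and it was called at an adjusted p under 0.05 over all tested probe sets. It was tested with limma without a replicate term (the main, unpaired fit) and with the replicate number as a block (the paired fit). The labels do not say what a replicate number shares. The pairing comes from correlations in these data, which set replicate 1 apart and do not single out the pairs of replicates 2 and 3. In both genotypes replicate 1 was unlike replicates 2 and 3. The mean of the control probe sets for small-subunit ribosomal RNA was 11.4 log2 in replicate 1 and 6.2 in the other 4 arrays. Actin probe sets at the 3' end exceeded those at the 5' end by 0.943 log2 in replicate 1 and by 0.447 in the others. Control replicate 3 alone had larval fat body transcripts, with Lsp2 at 6.51, Fbp1 at 5.52 and Fbp2 at 5.55 log2, against values of at most 3.24 on the other 5 arrays.

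The main, unpaired fit called 0 of the 10 chitin genes, against a background of 0.512% of tested genes. In the paired fit, whose pairing comes from these same data, the chitin genes moved in both directions. The synthase gene kkv and the chitinase gene Cht5 were higher in tumour discs, by 0.50 and 0.89 log2, while the chitinase genes Cht6 and Cht10 were lower, by 0.62 and 0.39 log2. That made 2 of 10 genes higher, against a background of 4.06% of tested genes called higher, and 2 of 10 lower, against 5.38%. Together these were 4 of 10, against 9.45% in either direction. The remaining 6 genes, among them both deacetylase genes and both genes of chitin-binding matrix proteins, were not called. In the unpaired limma fit 2 of the 10, Cht6 and Cht7, had an unadjusted p under 0.05, as did 8.73% of tested genes. With replicates 2 and 3 alone and no block, 3 of 10 were called (kkv, Cht6 and Cht10), against 7.17%. All 10 genes exceeded 4 log2 on all 6 arrays, so none was tested only because 1 genotype was high. Their median difference was 0.03 log2, beside 0.05 over all tested genes. These are pools of whole discs, in which fewer cells of a type and less RNA per cell cannot be told apart. The paired calls of all 4 genes were lost without the replicate 3 pair, where the fit called 0 of 6447 genes and 953 had an unadjusted p under 0.05.

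**Figure D1:**
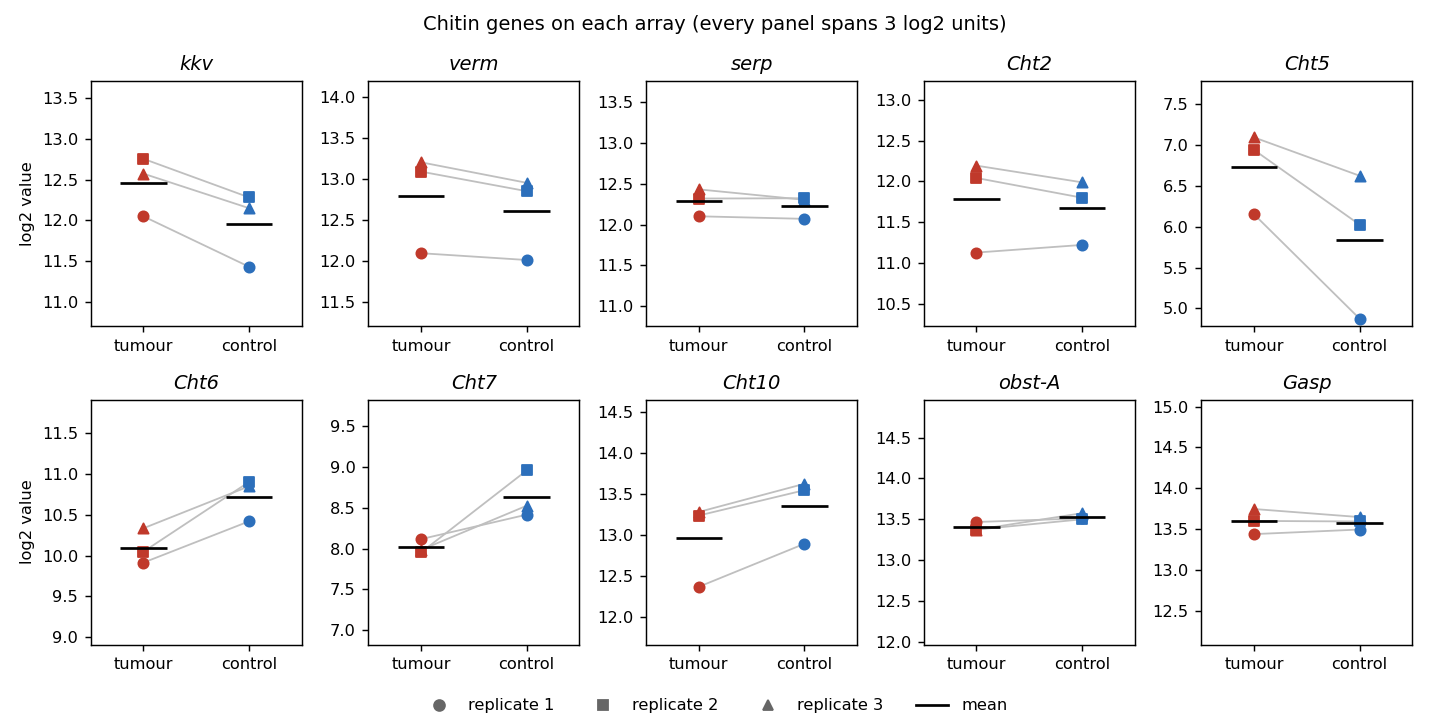
Log2 values of the 10 chitin genes on each array, tumour at left and control at right in every panel; symbols mark the replicate number, grey lines join arrays of the same number and black bars are means of 3 arrays. Every panel spans 3 log2 units. The 3 lines run the same way for kkv, Cht5, Cht6 and Cht10, and also for verm, Cht7 and obst-A, which were not called. For Cht6, Cht7 and obst-A all 3 tumour values lie below all 3 control values.

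Kkv is the synthase of epidermal and tracheal chitin. The kkv probe set had 12.05, 12.75 and 12.57 log2 in tumour replicates 1, 2 and 3, against 11.43, 12.28 and 12.15 log2 in control replicates 1, 2 and 3. Each tumour array was thus above the control array of its number, but tumour replicate 1 lay below control replicates 2 and 3, so the genotypes overlapped. The means were 12.46 ± 0.37 in tumour and 11.96 ± 0.46 in control (SD, n = 3). That is 1.42-fold higher in tumour. The 3 same-number differences were 0.62, 0.47 and 0.42 log2. The paired fit called the rise (0.50 ± 0.053 log2, SE, limma adjusted p = 0.012) and the unpaired fit did not (adjusted p = 0.82). With both replicate 1 arrays left out the difference was 0.45 log2 and was called without a block (adjusted p = 0.049). Without the replicate 3 pair, which holds the array with fat body transcripts, it was 0.54 log2 and was not called (adjusted p = 0.18). In the unpaired fit without control replicate 1 it was 0.24 log2. A larger difference than that of kkv was found for 3.66% of the tested genes.

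A second chitin synthase gene, Chs2, is known for the peritrophic matrix that lines the gut. It stood between 2.19 and 2.49 log2 on the tumour arrays and between 2.17 and 2.30 on the control arrays, too low to be tested.

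The deacetylase genes verm and serp, which are neighbours on chromosome arm 3L, encode secreted proteins that shape tracheal chitin and set tube length in the embryo. For verm the values were 12.09, 13.09 and 13.21 log2 in tumour discs, against 12.01, 12.85 and 12.96 log2 in control discs. Every tumour array was above its same-number control array, by 0.08, 0.24 and 0.25 log2, but the groups overlapped over most of their range. The difference of 0.19 log2 was not called in either fit (limma adjusted p = 0.085 paired, 1 unpaired), and its 95% confidence interval in the paired fit ran from 0.06 to 0.32.

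For serp the values were 12.10, 12.32 and 12.43 log2 in tumour discs, against 12.07, 12.32 and 12.30 log2 in control discs. The groups overlapped, and replicates 2 were the same to the second decimal. The difference was 0.05 log2 (adjusted p = 0.48 paired, 1 unpaired), with a paired interval from -0.07 to 0.17. The verm interval thus lay above 0 although the call was missed, and the serp interval included 0.

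Chitinases split by gene. Cht5 encodes a secreted chitinase of moulting fluid. The Cht5 probe set had 6.15, 6.94 and 7.09 log2 in tumour discs, against 4.87, 6.03 and 6.63 log2 in control discs. Tumour was higher in all 3 same-number pairs, by 1.28, 0.91 and 0.47 log2, and the groups overlapped because control replicate 3 lay above tumour replicate 1. The means were 6.73 ± 0.51 in tumour and 5.84 ± 0.89 in control (SD, n = 3). That is 1.85-fold higher in tumour, which the paired fit called (0.89 ± 0.18 log2, SE, limma adjusted p = 0.047) and the unpaired fit did not (adjusted p = 0.82). The call sat close to the threshold. It was lost with any 1 replicate number left out of the paired fit, with differences of 0.69, 0.87 and 1.096 log2 and adjusted p of 0.079, 0.095 and 0.19 without numbers 1, 2 and 3. Without control replicate 1, the lowest array, the unpaired difference was 0.40 log2.

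Cht10 is a large chitinase with several catalytic domains that insects need to digest old cuticle at the moult. Its values were 12.36, 13.24 and 13.28 log2 in tumour discs, against 12.89, 13.55 and 13.62 log2 in control discs. The fall appeared in every pair, at -0.53, -0.31 and -0.34 log2, and the groups overlapped because control replicate 1 lay below tumour replicates 2 and 3. The means were 12.96 ± 0.52 in tumour and 13.35 ± 0.40 in control (SD, n = 3). Cht10 was thus 1.31-fold lower in tumour. The paired fit called it (-0.39 ± 0.055 log2, SE, limma adjusted p = 0.022) and the unpaired fit did not (adjusted p = 0.94). With replicates 2 and 3 alone it was called without a block at -0.33 log2 (adjusted p = 0.024). Without the replicate 3 pair the difference was -0.42 log2 and not called (adjusted p = 0.23). In the unpaired fit the difference was -0.10 log2 without tumour replicate 1, -0.63 without control replicate 1 and -0.26 without control replicate 3.

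Cht6, a chitinase gene expressed in the epidermis, was read by 3 probe sets with unequal results. The brightest had 9.91, 10.05 and 10.33 log2 in tumour discs, against 10.42, 10.90 and 10.85 log2 in control discs. Here the groups did not overlap, although the gap between the highest tumour and the lowest control array was only 0.08 log2. The means were 10.10 ± 0.22 in tumour and 10.72 ± 0.26 in control (SD, n = 3). That is 1.54-fold lower in tumour. The paired fit called it (-0.62 ± 0.087 log2, SE, limma adjusted p = 0.022) and the unpaired fit did not (adjusted p = 0.31). Centring or quantile normalizing the arrays brought the unpaired adjusted p to between 0.017 and 0.026, while without the replicate 3 pair the paired difference was -0.68 log2 and not called (adjusted p = 0.22).

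The second Cht6 probe set had 5.08, 5.93 and 6.69 log2 in tumour discs, against 5.16, 7.29 and 6.71 log2 in control discs. Only the replicate 2 pair differed clearly, by -1.36 log2, with -0.07 and -0.02 in the others, and the probe set was not called (-0.48 log2, adjusted p = 0.32 paired, 1 unpaired). Averaged over both tested probe sets, Cht6 was at -0.55 log2 and no longer called with the block (adjusted p = 0.13). The third Cht6 probe set stayed between 2.24 and 2.26 log2 on all 6 arrays and was not tested. Which Cht6 transcripts each probe set reads was not analysed here.

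Cht7 belongs to a chitinase group that in Tribolium is membrane-anchored. It had 8.12, 7.95 and 7.98 log2 in tumour discs, against 8.42, 8.96 and 8.53 log2 in control discs. The groups did not overlap, with a gap of 0.30 log2, the widest of the 10 genes. The means were 8.02 ± 0.09 in tumour and 8.63 ± 0.29 in control (SD, n = 3). The difference of -0.61 ± 0.15 log2 (SE of the paired fit) missed the threshold in both fits (limma adjusted p = 0.073 paired, 0.34 unpaired), and its same-number differences were uneven, at -0.30, -1.003 and -0.54 log2. With quantile normalization or median centring the paired fit called it, at adjusted p of 0.029 and 0.027.

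Cht2, a chitinase gene that acts in cuticle formation, had 11.13, 12.04 and 12.19 log2 in tumour discs, against 11.22, 11.80 and 11.99 log2 in control discs. Its pairs disagreed in sign, with -0.09, 0.24 and 0.20 log2, and the difference of 0.12 log2 was not called (limma adjusted p = 0.36 paired, 1 unpaired; paired interval from -0.08 to 0.32). Of the 5 chitinase genes the paired fit thus called 1 higher, beside 4.06% of tested genes, and 2 lower, beside 5.38%. The other 2 were not called. The Cht5 call was lost with any 1 replicate number left out, and the Cht6 call with its tested probe sets averaged.

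**Figure D2:**
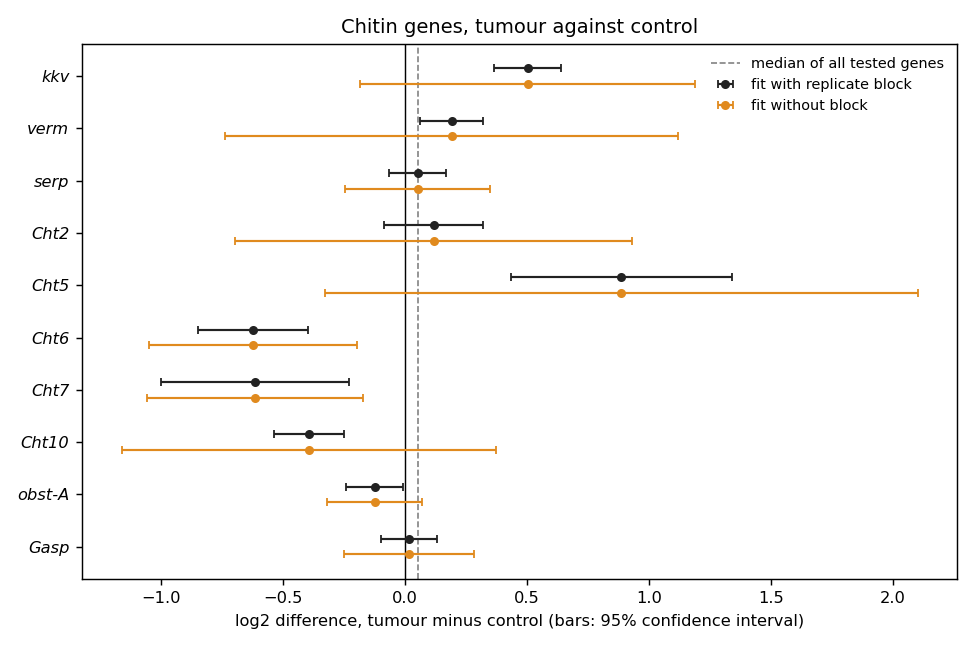
Log2 difference, tumour minus control, of each chitin gene with its 95% confidence interval, from the paired fit (black) and the unpaired fit (orange); the dashed line is the median of all tested genes at 0.05. The paired intervals of kkv and Cht5 lie above 0, as does that of verm, and those of Cht6, Cht7, Cht10 and obst-A lie below it. Of these genes only Cht6 and Cht7 have unpaired intervals that exclude 0. Those of kkv, Cht5, verm, Cht10 and obst-A include it.

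Neither gene of a chitin-binding matrix protein was called. Obst-A is a scaffold protein that gathers chitin and its modifying enzymes in the assembling matrix. Its gene had 13.47, 13.37 and 13.37 log2 in tumour discs, against 13.51, 13.50 and 13.57 log2 in control discs. All tumour values were below all control values, by a gap of 0.03 log2, and the same-number arrays differed by -0.04, -0.13 and -0.20 log2. The difference of -0.12 log2 was not called (limma adjusted p = 0.15 paired, 0.87 unpaired). Together with Cht6 and Cht7, obst-A made 3 of 10 genes whose genotypes did not overlap, all lower in tumour, against a background of 7.20% of tested genes that lay lower without overlap and 15.9% in either direction.

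Gasp encodes a chitin-binding protein of the tracheal lumen. It had 13.44, 13.60 and 13.75 log2 in tumour discs, against 13.49, 13.59 and 13.65 log2 in control discs. The groups overlapped, and the difference of 0.02 log2 had a paired interval from -0.10 to 0.13 (limma adjusted p = 0.83 paired, 1 unpaired). In 93% of the tested genes the size of the difference was larger than in Gasp.

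**Figure D3:**
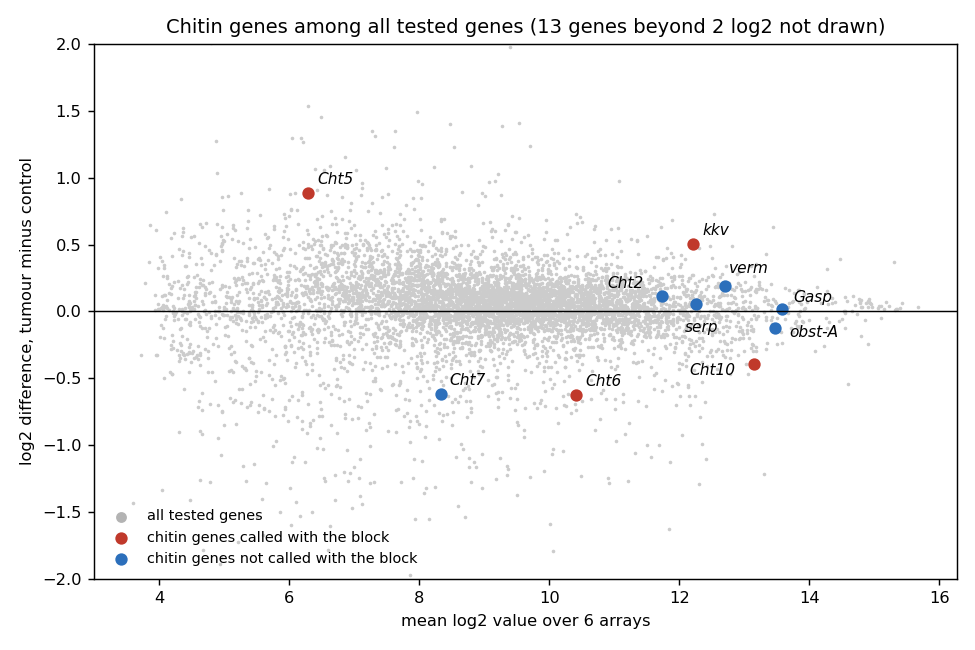
Log2 difference, tumour minus control, against the mean log2 value over 6 arrays for all tested genes (grey) and the 10 chitin genes (red where called in the paired fit, blue where not); 13 genes beyond 2 log2 are not drawn. Cht5 at 0.89 and kkv at 0.50 sit above the grey band's centre, Cht6, Cht7 and Cht10 below it, and the other 5 close to 0.

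A gap here is the log2 value of the first gene minus that of the second on the same array. It does not change when a constant is added to all values of that array, but other ways of scaling can change it. Its absolute size has no meaning across probe sets. Where the first gene was the lower one the gap is negative, and a larger gap is then a less negative one. The gap of kkv over Cht6 was larger by 1.13 log2 in tumour discs than in control discs, with 1.12, 1.33 and 0.94 in the same-number pairs. That of kkv over Cht7 was larger by 1.12 log2. The gap of kkv over Cht10 was negative, with means of -0.50 log2 in tumour and -1.40 in control. It was larger by 0.90 log2 in tumour, with pairs at 1.14, 0.78 and 0.77. For these 3 chitinase genes the gaps did not overlap between genotypes, whereas those of kkv over each of the other 6 genes did. All these gaps share the kkv values, and the share of gaps without overlap over other gene pairs was not computed. Every gap of kkv over another member was larger in tumour in all 3 pairs except that over Cht5, which was smaller, by -0.66, -0.44 and -0.05 log2.

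Among the chitinase genes themselves Cht5 was the lowest on every array, so all its gaps were negative. The gap of Cht5 over Cht10 was -6.23 log2 in tumour discs and -7.51 in control discs, larger by 1.28. That over Cht6 was -3.37 log2 in tumour and -4.88 in control, larger by 1.51. Neither of these gaps overlapped between genotypes. The gap of Cht5 over Cht2 was larger by 0.77 log2 without overlap, and that of Cht5 over Cht7 by 1.502 with overlap. Cht2 gained 0.74 log2 on Cht6 and 0.51 on Cht10 without overlap, and 0.73 on Cht7 with overlap. The gaps of Cht6 over Cht7, Cht6 over Cht10 and Cht7 over Cht10 differed by -0.01, -0.23 and -0.22 log2, overlapped between genotypes and changed sign between pairs. These gaps are given as a description, since the genes were chosen with results of these arrays known. Their differences between genotypes follow from the gene differences given above, and no share over other gene pairs was computed for them.

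**Figure D4:**
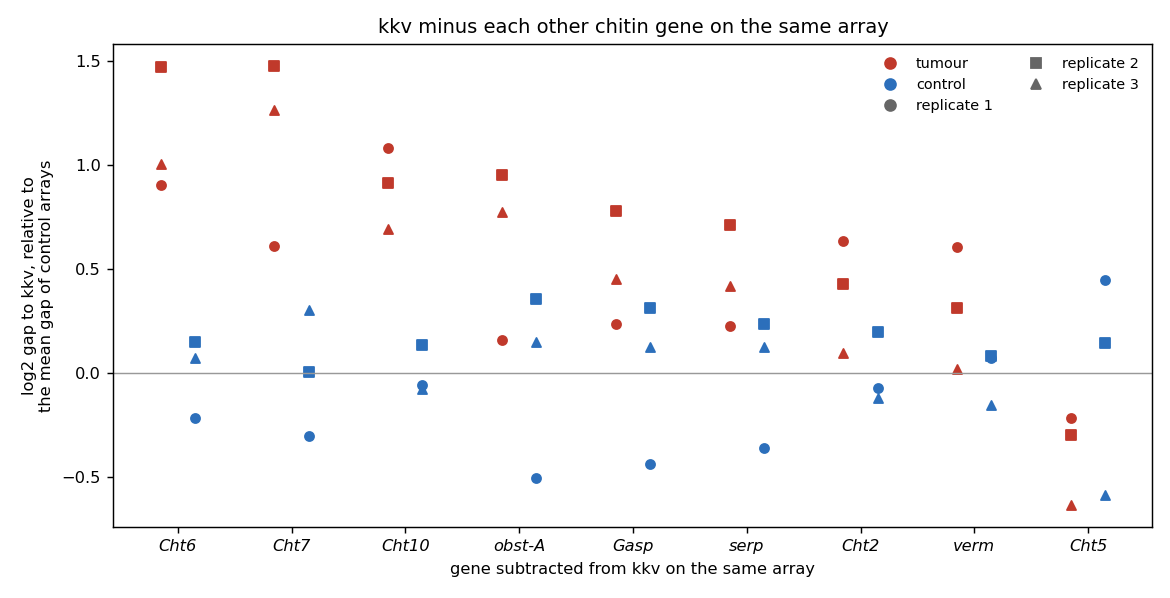
Gap in log2 value between kkv and each other chitin gene on the same array, relative to the mean gap of the 3 control arrays, tumour in red to the left of control in blue, with symbols for the replicate number. The tumour points lie above all control points for Cht6, Cht7 and Cht10 and overlap them for the other 6 genes.

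The set also differed in how it followed the replicate number. On the replicate 1 arrays Cht5 was 1.16 log2 lower than on the other 4 arrays, verm 0.98 lower, Cht2 0.83 lower, Cht10 0.80 lower and kkv 0.70 lower. The median over all tested genes was 0.34 lower, and 86.1% of them were lower. For Cht7 the replicate 1 arrays were 0.09 lower and for obst-A 0.03 higher. In kkv, Cht5 and Cht10 this shift exceeded the genotype difference, and these 3 had overlapping genotypes. The part of the ribosomal RNA and 3'-to-5' values in it was not tested.

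The other genes of chitin metabolism, its matrix and its hormonal regulation were followed in 7 lists with 53 genes, of which 46 had a probe set and 27 were tested. The paired fit called 3 of these 27 higher and 0 lower, beside 4.06% and 5.38% of all tested genes. The unpaired fit called 0, beside 0.512%, with an unadjusted p under 0.05 for 4 of the 27, beside 8.73%. Their median difference was -0.02 log2, beside 0.05 over all tested genes. The genes without a tested probe set were not analysed further here.

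Enzymes that make the sugar precursor, and partners of the synthase, showed no call among 5 tested of 8 listed. The smallest p was that of Gfat1, whose enzyme catalyses the entry step of the hexosamine pathway, with 13.17 ± 0.25 log2 in tumour and 13.00 ± 0.26 in control (SD, n = 3, limma adjusted p = 0.065 paired, 0.98 unpaired). Gfat1 was higher in each same-number pair, by 0.19, 0.12 and 0.20 log2. Their median difference was 0.01 log2.

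Other modifying and degrading enzymes mostly lay below the minimum for testing. Of 4 further deacetylase genes only Cda4 was tested, with 11.08 ± 0.65 log2 in tumour and 11.02 ± 0.39 in control (SD, n = 3, limma adjusted p = 0.72 paired). Of 5 further chitinase genes only Cht11 was tested, with a difference of 0.03 log2 (adjusted p = 0.87 paired). The hexosaminidase gene fdl, whose enzyme is known for trimming N-glycans, had 9.42 ± 0.32 log2 in tumour and 9.36 ± 0.38 in control (SD, n = 3, adjusted p = 0.58 paired), and Hexo2 was not called either.

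The obstructor family, to which obst-A and Gasp belong, held the smallest paired p of the 7 lists, that of obst-B. It had 11.71, 12.20 and 12.18 log2 in tumour discs, against 11.26, 11.53 and 11.42 log2 in control discs. All tumour values exceeded all control values, and the paired fit called the rise of 0.63 log2 (1.55-fold, limma adjusted p = 0.014; 0.25 unpaired). With replicates 2 and 3 alone it was called without a block at 0.72 log2 (adjusted p = 0.0083).

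Outside the naming rule, and chosen after their values were seen, 2 more obstructor genes had no overlap between genotypes. Of the 3 tested on this list 2 lay higher and 1 lower without overlap, beside 15.9% of tested genes in either direction. The brightest probe set of obst-E had 7.06, 6.29 and 6.73 log2 in tumour discs, against 5.10, 6.05 and 5.03 log2 in control discs, a difference of 1.30 log2 (limma adjusted p = 0.089 paired). Peritrophin-A, the neighbour of obst-A on the X chromosome, had 4.42, 4.12 and 4.16 log2 in tumour discs, against 4.65, 4.72 and 4.68 log2 in control discs (-0.45 log2, adjusted p = 0.091 paired). Neither was called. The other 5 listed obstructor genes were at the floor.

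Among 6 tested genes of chitin organisation and the apical matrix the paired fit called 1 higher, beside 4.06% of tested genes. This was mey, which encodes a zona pellucida domain protein of the apical matrix. It had 8.64 ± 0.25 log2 in tumour and 8.05 ± 0.45 in control (SD, n = 3, 0.60 log2, limma adjusted p = 0.039 paired, 0.66 unpaired), and was not called with replicates 2 and 3 alone (adjusted p = 0.23). The gene knk, whose product organises chitin next to the deacetylases, was at -0.08 log2 (adjusted p = 0.31 paired).

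Ecdysone, the moulting hormone, controls when chitin genes are used. Of 9 tested regulators in its response the paired fit called 1 higher, beside 4.06% of tested genes. This was ftz-f1, a nuclear receptor gene of the falling hormone pulse. It had 9.12, 9.21 and 8.98 log2 in tumour discs, against 7.90, 8.75 and 7.996 log2 in control discs, with no overlap (0.89 log2, limma adjusted p = 0.037 paired, 0.31 unpaired). With replicates 2 and 3 alone it was not called (adjusted p = 0.18), and its second tested probe set overlapped and was not called (0.80 log2, adjusted p = 0.13 paired). In the same list 3 uncalled genes had differences of similar size in the other direction and lower tumour values in all 3 pairs. These were Blimp-1 at -0.83 log2 with no overlap (adjusted p = 0.11 paired), Eip78C at -0.82 (adjusted p = 0.10) and Hr4 at -0.82 (adjusted p = 0.15). Without overlap 2 of the 9 lay higher and 2 lower, beside 15.9% of tested genes in either direction. These include grh at 0.17 log2 with a gap of 0.03, and Hr39 at -0.07 with a gap of 0.02. The receptor gene EcR was at -0.02 log2 (adjusted p = 0.89 paired).

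**Figure D5:**
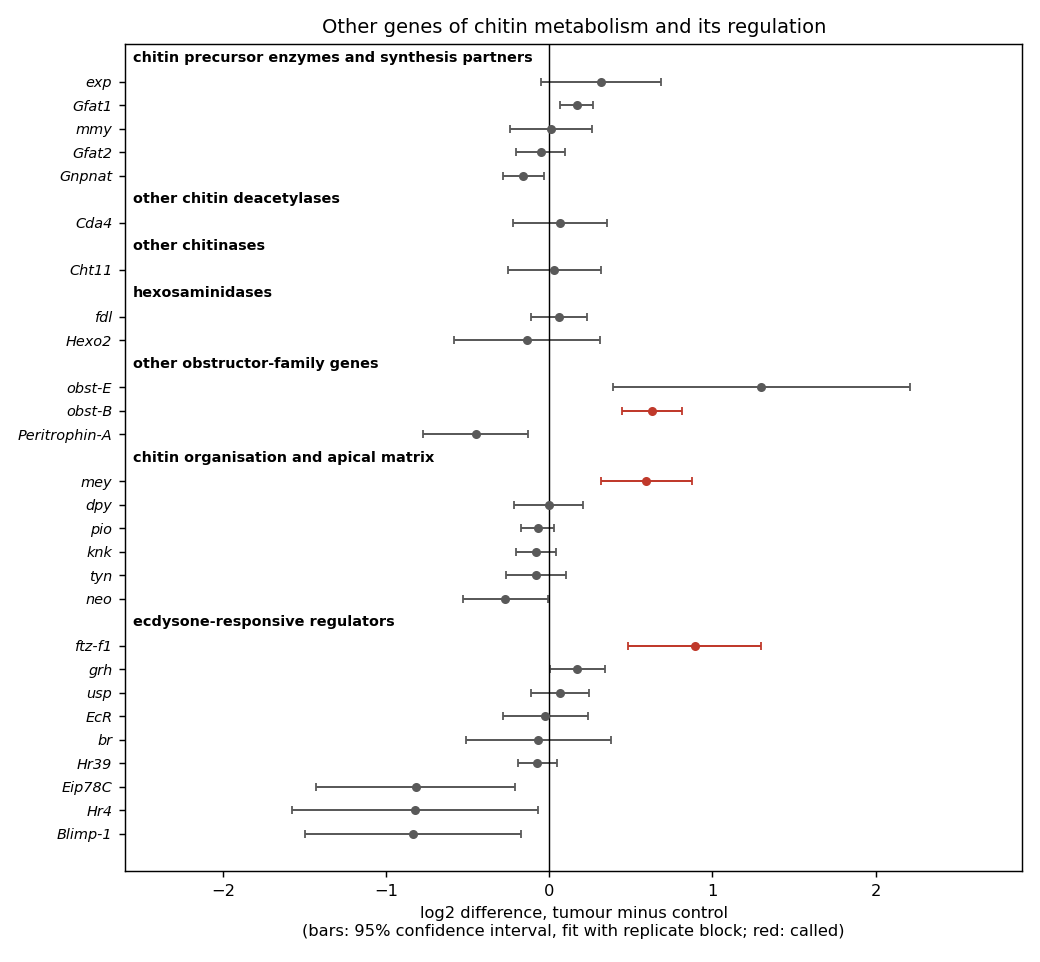
Log2 difference, tumour minus control, with 95% confidence interval of the paired fit for the 27 tested genes of the 7 lists around chitin metabolism; red marks genes called in the paired fit. The called genes are obst-B, mey and ftz-f1, all above 0, and none of the precursor enzymes, other deacetylases, other chitinases and hexosaminidases is called.

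Markers of cells that a disc preparation can hold were measured beside these genes. The paired fit called all 5 eye disc markers higher, against 4.06% of tested genes, and the unpaired fit called 0 of them, with an unadjusted p under 0.05 for 5. Their summed level ran from 14.5 to 14.6 log2 in tumour and from 13.7 to 14.1 in control. Of these, ey, the gene whose enhancer the driver uses, had 9.83, 10.55 and 10.58 log2 in tumour discs, against 8.39, 9.48 and 9.38 log2 in control discs (limma adjusted p = 0.0056 paired, 0.32 unpaired). Differences of 0.64 for so, 0.69 for dac and 0.72 log2 for toy followed. The part of these markers in the chitin gene differences was not tested.

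The 4 antennal markers with a probe set summed to between 10.4 and 10.8 log2 in tumour and between 10.9 and 11.2 in control. The paired fit called 2 of 4 lower, Dll at -0.61 and en at -0.35 log2, against 5.38% of tested genes, and the unpaired fit 0, with an unadjusted p under 0.05 for 2. The called Dll probe set overlapped between genotypes. The other tested Dll probe sets, at -0.48 and -0.55 log2, were not called (limma adjusted p = 0.11 and 0.12 paired). Of 5 tested muscle and myoblast markers the paired fit called 4 lower, against 5.38% of tested genes. These were TpnC73F at -0.84, Mlc1 at -0.43, up at -0.52 and zfh1 at -1.28 log2. The unpaired fit called TpnC73F alone (limma adjusted p = 0.045), against 0.512% of tested genes. The muscle sums ran from 12.6 to 12.8 log2 in tumour and from 13.1 to 13.3 in control.

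Neuronal and glial markers also held calls in the paired fit. The neuronal gene elav had 11.46, 11.22 and 11.29 log2 in tumour discs, against 11.06, 10.61 and 10.73 log2 in control discs, with no overlap (0.52 log2, limma adjusted p = 0.014 paired, 0.28 unpaired). It was the 1 gene called of 3 tested neuronal markers, against 4.06% of tested genes called higher. The neuronal list summed to 11.3 to 11.5 log2 in tumour and 10.7 to 11.1 in control. This sum is mostly elav, since nSyb and brp had means of 5.03 and 4.59 log2 in tumour discs. The uncalled nSyb and brp were at 0.02 and 0.45 log2 (limma adjusted p = 0.93 and 0.14 paired). The glial gene moody was the 1 called of 4 tested glial markers, against 5.38% of tested genes called lower. It was lower in tumour (-0.41 log2, limma adjusted p = 0.046 paired, 0.77 unpaired). The uncalled loco and Gli were higher in all 3 pairs, at 0.20 and 0.17 log2, and repo was at -0.16. The median of the glial list was 0.002 log2. The glial sums overlapped, at 13.5 to 13.7 log2 in tumour and 13.2 to 13.7 in control. The part of the antennal, muscle, neuronal and glial markers in the chitin gene differences was not tested.

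Trachea is a tissue in which kkv, verm, serp and Gasp are known to act, and its receptor gene btl was the only tracheal marker with a probe set. btl had 2.17, 3.27 and 3.27 log2 in tumour discs, against 2.46, 4.04 and 4.83 log2 in control discs, and was too low to be tested. Its part in the chitin gene values was not tested. Haemocyte markers summed to 9.8 to 10.6 log2 in tumour and 10.1 to 10.6 in control, with 0 of 7 called by limma in either fit. An unadjusted p under 0.05 was found for 1 of 7 in the unpaired fit, beside 8.73% of tested genes, and for 3 of 7 in the paired fit, beside 30.0%. The smallest paired p was that of Hml (-0.59 log2, limma adjusted p = 0.11). Sr-CI, the 1 gene under 0.05 in the unpaired fit, went the other way, at 0.76 log2 (limma adjusted p = 0.14 paired). Without overlap 1 of 7 lay higher, Sr-CI, and 1 lower, Pxn, beside 15.9% of tested genes in either direction. Pxn was at -0.44 log2 (limma adjusted p = 0.12 paired) and NimC1 at 0.04. The median of the haemocyte list was -0.26 log2. The part of these markers in the chitin gene values was not tested.

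The genes closest to kkv over the 6 arrays, by Pearson correlation among 6437 other tested genes, were az2 (0.9981), CkIIalpha-i3, E(spl)m4-BFM, Klp67A and CG10376 (0.9945). They share with kkv the low replicate 1 arrays, and 382 genes had a correlation over 0.95. After the mean of same-number arrays was subtracted, which leaves only the 3 pair differences, the closest were dtn, CG33978, Brf, CG12159 and CG14683, and 831 genes were over 0.95.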

How the data were processed

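RNA of 6 eye-antennal disc samples, 3 tumour and 3 control, was hybridised to one-colour Affymetrix arrays (15 ug of cRNA each, per the labels' protocols). For 18952 probe sets the authors deposited log2 intensities, made with GCRMA, per the submitters' processing notes; its version and a genome build are not given in the sources used here. The log2 scale was read from their range, 2.165 to 15.79. Of 18769 probe sets other than controls, platform annotation gave 13647 a single gene, 402 several and 4720 none; 13544 names were updated through RefSeq Release 6 by gene identifier.

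The genotypes were tested two-sided using limma 3.58.1 under R 4.3.3 (functions lmFit and eBayes, trend on), with Benjamini-Hochberg adjustment over 7962 tested probe sets. The labels call the samples biological replicates without saying what a number shares, so p-values measure the spread between these pools. Deviations of same-number samples correlated at 0.794, 0.467 and 0.723, all over 0.1, so the numbers were treated as pairs; the pairing comes from the data, not the labels, and the main design stayed unpaired. Tumour 2 correlated more with control 3 (0.668) than with control 2, and tumour 3 with control 2 reached 0.473, so the correlations set replicate 1 apart and do not single out the pairs of replicates 2 and 3. A gene is represented by its brightest tested probe set. The members and gene lists were chosen with earlier results of these data known. Named are all 10 members and, in each list, up to 4 called genes or, with none called, the 1 with the smallest paired p, the 5 genes most correlated with kkv by each measure, and ey. Named outside this rule, after their values were seen, are obst-E, Peritrophin-A, knk, Blimp-1, Eip78C, Hr4, EcR, Chs2, Hexo2, btl, Lsp2, Fbp1 and Fbp2. The same holds for Sr-CI, Pxn, NimC1, nSyb, brp, grh, Hr39, loco, Gli and repo. Fits were tested on simulated data. Alternatives changed the block, the arrays, the scaling, the filter, the trend, array weights and the probe set rule.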

Additional observations from a re-analysis of the deposited data

How the results depend on the processing

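Without a block the count of called genes was 33, and 462 with replicates 2 and 3 alone, 179 with quantile normalization, 145 with median centring, 145 with ribosomal centring, 1 with no filter and 1356 with array weights, whose estimation stopped before convergence. Leaving out 1 array gave 0 to 13, and limma found 0 in 3 of these: with tumour replicate 2 left out (366 genes at an unadjusted p under 0.05), control replicate 2 (430) and control replicate 3 (383). With the replicate block the count was 609 (262 higher, 347 lower), and 434, 384 and 0 without replicate 1, 2 and 3 (953 unadjusted in the last). Further combinations with the block, chosen after seeing the data, gave 861 with quantile normalization, 793 with median centring, 635 with ribosomal centring (192 higher, 443 lower), 401 without trend, 652 with probe sets averaged and 0 without a filter (1764 unadjusted).

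Of the 10 chitin genes 0 were called without a block and 0 with any 1 array left out, 3 with replicates 2 and 3 alone, 1 each with quantile normalization, median centring and ribosomal centring, and 6 with array weights. With the block 4 were called, 0 to 4 with 1 number left out, 6 with quantile normalization, 5 with median centring, 4 with ribosomal centring, 2 without trend, 3 with probe sets averaged and 0 without a filter (5 unadjusted). The differences of kkv, Cht5, Cht6, Cht7, Cht10 and obst-A kept their sign in every alternative run. Uncalled differences changed sign with 1 array left out, over ranges of -0.107 to 0.543 log2 for verm, -0.0291 to 0.143 for serp, -0.107 to 0.447 for Cht2 and -0.0588 to 0.0948 for Gasp. The negative values came without control replicate 1 or tumour replicate 3 for all 4, and also without tumour replicate 2 for Cht2. Gasp was also at -0.0245 with the block without replicate 3, -0.0123 with median centring and -0.0321 with ribosomal centring, each with or without the block, and -0.0061 with array weights. The cause was not tested.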
